A study of Mus musculus with 6 samples.

Results

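Cholesterol is built from acetyl-CoA in a long chain of enzymes. The early, mevalonate steps make the isoprenoid farnesyl diphosphate, and the later steps join it into squalene and shape the ring system into cholesterol. The transcription factors SREBP1 and SREBP2 (encoded by SREBF1 and SREBF2) drive these genes and those of fatty acid synthesis when membrane sterol is low. Their precursors are escorted out of the endoplasmic reticulum by SCAP and held there by INSIG1 and INSIG2. In secretory cells such as the enteroendocrine L-cell, the lipids made by these pathways are used for the membranes of the secretory route.

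To describe how these genes differed between the peak and the trough of the clock gene Arntl, 33 genes of sterol and fatty acid synthesis were taken by name from the array table, in the upper-case symbols that it uses. Of the 33 genes, 30 had a probe (47 probes of 45281 in all), and 29 were measured, meaning that the mean deposited intensity of the probe was above the background noise of the arrays. Over all genes, 11690 of 30854 symbols were measured in this sense. HMGCS1, FDFT1 and ACACA had no probe under these names. Neither the probe of FASN nor a probe listed under a RefSeq synonym of ACACA lay above the noise on any array. Of the 29, 28 lay above the noise on all 6 arrays, and SC5D did so on 4. The genes fall into 4 parts, namely 18 enzymes of sterol synthesis (16 measured), 5 SREBP regulators (5 measured), the sterol transport protein STARD4, and 9 enzymes of fatty acid synthesis, desaturation and elongation (7 measured). No receptor for sterol uptake is among them.

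The samples were mGLUTag cells, a male mouse line used as a model of the intestinal L-cell, the source of the hormone glucagon-like peptide-1. All cells had been starved in low serum, treated with forskolin, which raises cAMP, and returned to growth medium with serum. RNA was collected at 4 h (n = 3) and 16 h (n = 3), and each of the 6 samples was hybridized to 1 Illumina array. There was no unsynchronized control, and it is not stated whether the samples of a time point were separate cultures, so that p-values measure the spread between these samples only. In these samples 7 of 10 markers of L-cells and enteroendocrine cells were measured, among them GCG, CHGA, CHGB and SCGN. Of the rest, PYY lay above the noise on no array, PCSK1 on 1 and PAX6 on 4. Of 7 markers of other cell types, 6 had a probe, and COL1A1 alone was measured, close to background.

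Part of the upstream sequence of 7 of these genes is shown first, because SREBPs are known to act together with the factor NF-Y, which binds CCAAT boxes. For each gene except ACAT2 the bases are the 80 immediately before the annotated start of transcription, from 5′ to 3′ on the strand of the gene (RefSeq, GRCm38.p6). For ACAT2 they are the bases from 220 to 141 upstream of the start. Capitals mark the box CCAAT. Where that box lies on the other strand it reads ATTGG. In the promoter of ACAT2 the capitals mark the core of the sterol regulatory element, CACCCCAC. IDI1, MVD, MVK and ACAT2 are enzymes of the mevalonate steps, and CYP51, LSS and EBP act after squalene. The windows are chr13:8885526-8885605 for IDI1 (plus strand), chr8:122443423-122443502 for MVD (minus), chr5:114444189-114444268 for MVK (plus), chr5:4104698-4104777 for CYP51 (minus), chr10:76531525-76531604 for LSS (plus), chrX:8193513-8193592 for EBP (minus) and chr17:12960866-12960945 for ACAT2 (minus).
IDI1: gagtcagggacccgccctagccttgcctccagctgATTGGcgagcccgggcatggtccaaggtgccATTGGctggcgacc
MVD: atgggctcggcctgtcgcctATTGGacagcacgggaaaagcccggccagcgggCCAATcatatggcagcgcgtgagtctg
MVK: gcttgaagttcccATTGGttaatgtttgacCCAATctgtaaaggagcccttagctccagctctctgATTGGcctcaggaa
CYP51: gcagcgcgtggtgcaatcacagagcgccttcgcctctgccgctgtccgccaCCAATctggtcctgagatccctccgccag
LSS: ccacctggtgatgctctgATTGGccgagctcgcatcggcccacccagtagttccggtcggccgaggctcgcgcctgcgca
EBP: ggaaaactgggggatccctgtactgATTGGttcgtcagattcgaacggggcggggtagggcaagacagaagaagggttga
ACAT2: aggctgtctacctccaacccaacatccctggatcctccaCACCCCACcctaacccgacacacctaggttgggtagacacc

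RefSeq promoters were at hand for 26 of the 33 genes, not for FDPS, FDFT1, SQLE, STARD4, SCD1, SCD2 and FADS1. Within 250 bases upstream of any annotated start, on either strand, CCAAT was found for 20 of these 26 (76.9%), against 37.5% of 27025 genes. It was found for 5 of 6 mevalonate genes, 9 of 9 genes acting from squalene on, 4 of 5 SREBP regulators and 2 of 6 fatty acid genes. Thus both the mevalonate genes and the later sterol genes carried it. The letters CACCCCAC were found for 2 of 26 (7.69%), ACAT2 and HMGCS1, against 2.98% of genes. The E-box CACGTG is a sequence that the BMAL1 and CLOCK proteins can bind. It was found for 6 of 26 (23.1%), namely HSD17B7, SC5D, DHCR7, SCAP, INSIG1 and ELOVL5, against 6.86% of genes. A match to these letters is a description of the sequence and not a measured binding site, and none of the 3 motifs contains another. The noncanonical E-boxes that the authors tested for BMAL1 in the promoter of SCGN were not searched for.

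Before normalization nearly every gene was brighter at 4 h, the mean intensity over all probes being between 291 and 354 on the 4 h arrays and between 216.0 and 246 on the 16 h arrays. The mean deposited intensity was higher at 4 h for 97.4% of all measured genes, with a median log2 ratio of 0.54, and for 28 of the 29 members (96.6%), with a median log2 ratio of 0.54. STARD4, which carries cholesterol between membranes, was the exception at -0.04. IDI1 followed at 0.01, then MVD (0.17), MVK (0.19), INSIG1 (0.19) and FDPS (0.21). At the other end were TM7SF2 (0.97) and SC5D (1.22), both dim. All further values are normalized log2 intensities, in which a gene is measured relative to the other probes of its array; a "log2 change" is 4 h minus 16 h on that scale, and a negative one means that the gene stood lower among the probes of its array at 4 h.

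**Figure D1:**
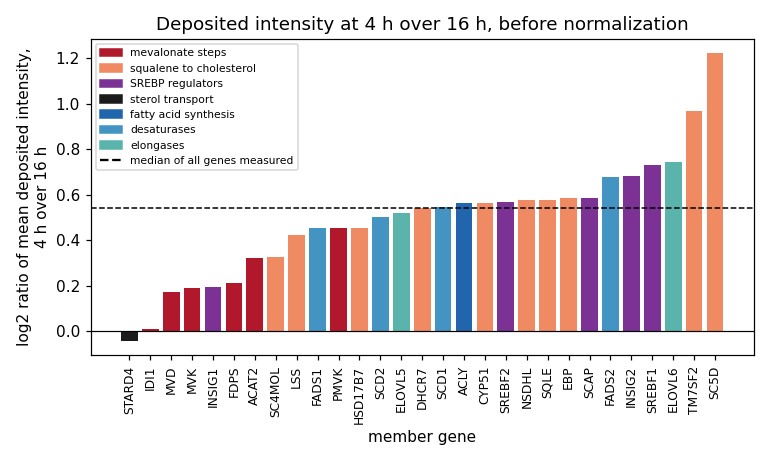
Log2 ratio of the mean deposited intensity at 4 h over that at 16 h (3 arrays each) for the 29 measured members, as bars from 0 ordered by size and coloured by role; the dashed line is the median of all measured genes, 0.54. STARD4 (-0.04) and IDI1 (0.01) stand at the left end, and the mevalonate genes all lie below the line.

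After normalization STARD4 and the mevalonate genes had the lowest values as groups, while the later sterol enzymes, the SREBP regulators and the fatty acid genes were centred near 0, with single genes among them, INSIG1 (-0.27) and SC4MOL (-0.18), as low as some mevalonate genes. All 6 measured mevalonate genes had a negative log2 change, with a median of -0.27. Of the 10 measured genes acting from squalene on, 4 were negative and 6 positive, with a median of 0.01. The median was 0.03 over the 5 regulators (1 negative) and 0.03 over the 7 fatty acid genes (2 negative), beside 0.0015 over all 11690 measured genes, of which 5800 were negative. None of the 29 members passed the threshold of 0.05 by limma with Benjamini-Hochberg adjustment over all probes, where 0.0342% of all measured genes did (4 genes). At an unadjusted p under 0.05, 3 members were lower at 4 h (10.3%, STARD4, IDI1 and MVD), against 5.36% of all measured genes, and 0 were higher, against 5.99%. No overlap between the time points was seen for 2 members, STARD4 and IDI1, both lower (6.9%, against 5.77% of genes), and for 0 in the other direction (against 6.60%). These shares rest on 3 genes or fewer. In RNA from whole cultures, a lower level per cell and fewer cells that express a gene cannot be told apart. The intervals of 4 of the 6 mevalonate genes included 0, and the difference between the mevalonate genes and the later steps was not tested. The median of the regulators changed sign without 4 h replicate 2 (-0.032).

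**Figure D2:**
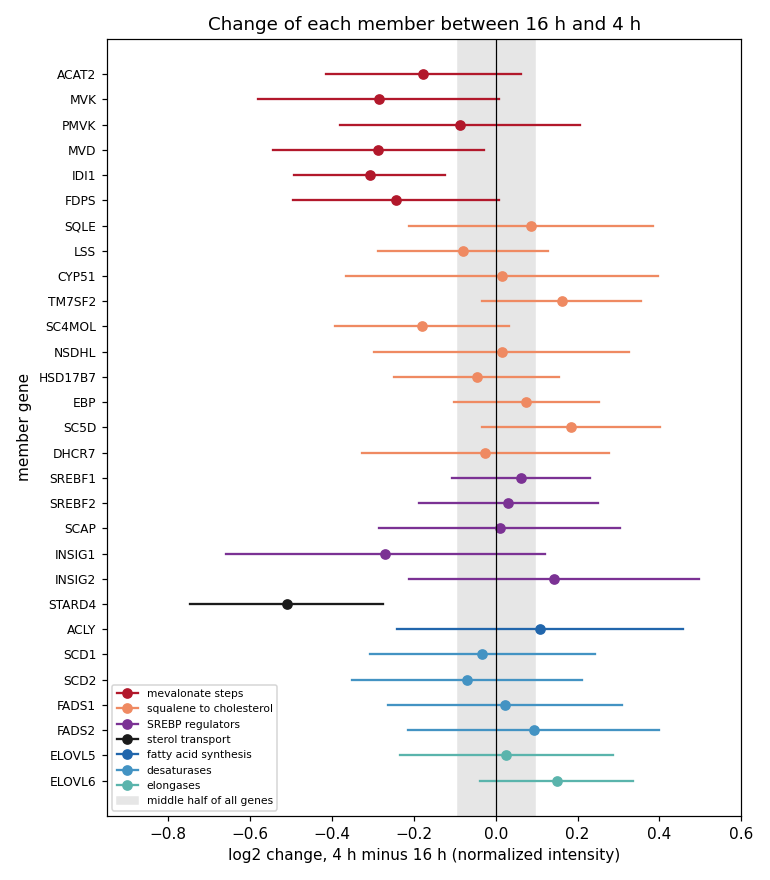
Log2 change, 4 h minus 16 h, of normalized intensity for each measured member (points) with its 95% confidence interval from limma (lines, n = 3 arrays per time point), coloured by role; the grey band runs from the lower to the upper quartile of all measured genes, -0.09 to 0.10. The intervals of STARD4, IDI1 and MVD lie below 0, and those of the other 26 members include it.

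Among the mevalonate genes, IDI1 showed the clearest separation. It encodes the isomerase that interconverts the building blocks of all isoprenoids. Its log2 intensity was 6.87, 7.03 and 6.90 at 4 h (replicates 1, 2 and 3) and 7.20, 7.16 and 7.37 at 16 h. On this normalized scale the 4 h arrays lay below the 16 h arrays without exception, whereas the deposited intensities overlapped. The mean at 4 h was lower by a difference of -0.31 log2 units (SE 0.081, with a limma adjusted p = 0.562, unadjusted p = 0.00434), 0.808 of the level at 16 h. The probe is dim, with deposited intensities between 65.1 and 75.9 at either time point, and the offset added during background correction shrinks the changes of dim probes in either direction. Without background correction the log2 change of IDI1 was -0.57 (limma adjusted p = 0.63). Those of the dim probes of SC5D and TM7SF2, 0.18 and 0.16 with the correction, were 0.97 and 0.39 without it (limma adjusted p = 0.845 for both). The SC5D probe was not above the noise on every array at 16 h, so its 0.97 has no exact size.

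MVD, the decarboxylase that yields isopentenyl diphosphate, stood at 7.49, 7.78 and 7.60 at 4 h and at 7.73, 7.88 and 8.12 at 16 h. One value at 4 h, that of replicate 2, lay above the lowest value at 16 h. The difference between the means was -0.29 log2 units (SE 0.11, limma adjusted p = 0.878, unadjusted p = 0.0325). MVK, mevalonate kinase, was at 7.68, 8.20 and 7.71 at 4 h and at 8.13, 8.10 and 8.21 at 16 h. Here replicates 1 and 3 at 4 h were low and replicate 2 was level with 16 h, and the log2 change was -0.29 (SE 0.13, limma adjusted p = 0.919). The remaining mevalonate genes had log2 changes of -0.24 for FDPS, the synthase of farnesyl diphosphate, -0.18 for ACAT2, the thiolase that makes acetoacetyl-CoA, and -0.09 for PMVK, phosphomevalonate kinase. Their time points overlapped, and their limma adjusted p lay between 0.919 and 0.976. FDPS had a second, dimmer probe with a log2 change of -0.16.

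One array weighed on the mevalonate genes. For each of the 6 genes, 4 h replicate 1 held the lowest of the 6 values, whereas this array was lowest for 19.4% of all measured genes. The median deviation of the 6 genes from their own means was -0.29, -0.02 and -0.11 on the 4 h arrays and 0.06, 0.14 and 0.17 on the 16 h arrays. These medians did not overlap between the time points, although 4 h replicate 2 was close to 0. Without 4 h replicate 1 the median log2 change of the 6 genes was -0.15 in place of -0.27, and over the whole sterol part it was 0.0087 in place of -0.06. Without 4 h replicate 1, PMVK had a log2 change of 0.05, FDPS of -0.12 and ACAT2 of -0.08. MVK ranged from -0.19 without 4 h replicate 1 to -0.45 without 4 h replicate 2. The unadjusted p of MVD was above 0.05 without any 1 of 4 arrays, namely 4 h replicate 1 (0.113), 4 h replicate 3 (0.0688), 16 h replicate 2 (0.0574) and 16 h replicate 3 (0.132).

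**Figure D3:**
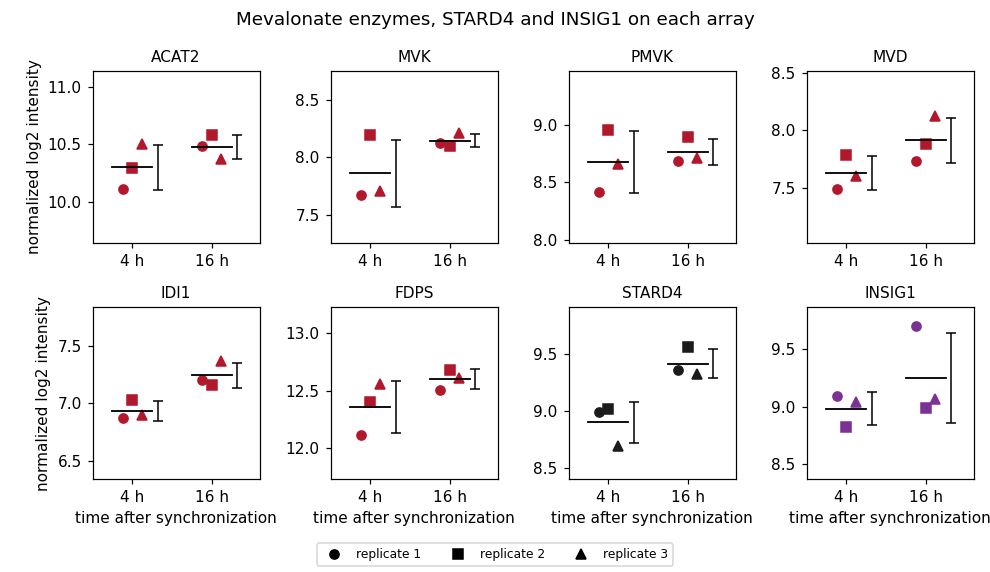
Normalized log2 intensity of the 6 measured mevalonate genes, STARD4 and INSIG1 at 4 h and 16 h, with 1 marker per array (shape shows the replicate number), the mean as a line and the SD (n = 3) as a bar; each panel spans the same 1.5 log2 units. IDI1 and STARD4 do not overlap between the time points, and replicate 1 at 4 h is the lowest point of every mevalonate gene.

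STARD4 had the largest log2 change of the 29 members with the offset of 50; without background correction that of SC5D was larger. Its log2 intensity was 8.99, 9.02 and 8.70 at 4 h and 9.36, 9.56 and 9.32 at 16 h, with means of 8.90 ± 0.18 (SD, n = 3) and 9.41 ± 0.13 (SD, n = 3). Every value at 4 h was below every value at 16 h. The log2 change was -0.51 (SE 0.10, 95% interval -0.75 to -0.28), 0.702 of the level at 16 h, with a limma adjusted p of 0.338 and an unadjusted p of 0.000851. It lay between -0.57 and -0.41 when each array was left out in turn. In the deposited intensities STARD4 was at 569, 468 and 449 at 4 h and 503, 614 and 413 at 16 h, which overlap.

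The enzymes acting from squalene on showed no common direction. SQLE, the squalene epoxidase, was at 11.08, 11.13 and 11.59 at 4 h and at 11.19, 11.29 and 11.06 at 16 h. A single array, 4 h replicate 3, was high, and the log2 change was 0.09 (95% interval -0.21 to 0.38). LSS, which closes the ring system of lanosterol, had a log2 change of -0.08 (95% interval -0.29 to 0.13). CYP51, the lanosterol demethylase, had one of 0.01 and NSDHL, which removes methyl carbons, also of 0.01, with intervals of -0.37 to 0.40 and -0.30 to 0.33. The other negative values were -0.18 for SC4MOL, the methylsterol oxidase, -0.05 for HSD17B7, a ketosteroid reductase, and -0.03 for DHCR7, the reductase that gives cholesterol. Positive values were found for SC5D, a sterol desaturase (0.18), TM7SF2, a sterol reductase (0.16), and EBP, a sterol isomerase (0.07). The largest of these, for SC5D, rests on a probe that was above the noise on each of the 3 arrays at 4 h but on just 1 of the 3 arrays at 16 h. Limma adjusted p for the 10 genes was between 0.92 and 0.998. The positive values of NSDHL and SQLE were those of their brightest probes. Dimmer measured probes gave -0.03, -0.06 and -0.08 for NSDHL and -0.01 for SQLE.

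Of the SREBP regulators, INSIG1, itself a target of SREBP, had the most negative value. It was at 9.09, 8.82 and 9.04 at 4 h and at 9.70, 8.99 and 9.07 at 16 h. The array of 16 h replicate 1 was far above the other 5, and the remaining values overlapped. Its log2 change was -0.27 (SE 0.17, 95% interval -0.66 to 0.12, limma adjusted p = 0.946), and it ranged from -0.05 without 16 h replicate 1 to -0.40 without 16 h replicate 2. With the arrays of high and low 18S ribosomal RNA signal as blocks it was -0.42 (limma adjusted p = 0.427, unadjusted p = 0.00252). The other bright probes of INSIG1 gave -0.29 and -0.13 and were also highest on 16 h replicate 1. INSIG2, its paralogue, was at 9.11, 8.83 and 8.96 at 4 h and at 9.21, 8.56 and 8.70 at 16 h, a log2 change of 0.14 (95% interval -0.21 to 0.50). This probe too was highest on 16 h replicate 1, and its time points overlapped. A second, dimmer probe of INSIG2, with a log2 change of 0.13, was highest on 4 h replicate 2 instead. Without 16 h replicate 1 the log2 change of the brighter probe was 0.34 (limma adjusted p = 0.534), and without 16 h replicate 2 it was 0.011.

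Of the SREBP genes themselves, SREBF1 was at 6.93, 6.81 and 6.94 at 4 h and at 6.92, 6.76 and 6.81 at 16 h, a log2 change of 0.06 (95% interval -0.11 to 0.23). SREBF2 had 2 probes that disagreed. The brighter one gave 9.19, 9.53 and 9.50 at 4 h and 9.35, 9.43 and 9.35 at 16 h, a log2 change of 0.03 (95% interval -0.19 to 0.25). The dimmer probe, chosen for description after its values were seen, gave 7.17, 7.30 and 7.44 at 4 h and 7.78, 7.77 and 7.47 at 16 h. Its values did not overlap between the time points, and its log2 change was -0.37 (limma adjusted p = 0.648). The mean of both probes had a log2 change of -0.17. SCAP, the escort protein, had a log2 change of 0.0099 (95% interval -0.28 to 0.30).

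Most fatty acid genes were brightest on the same array. For 6 of the 7 measured genes the highest of the 6 values was on 4 h replicate 3, an array that was highest for 20.9% of all measured genes; for SCD2 it was on 16 h replicate 1. ACLY, which supplies cytosolic acetyl-CoA from citrate, was at 12.64, 12.60 and 13.15 at 4 h and at 12.60, 12.92 and 12.55 at 16 h. One array at 4 h was high and the others overlapped with 16 h, with a log2 change of 0.11 (95% interval -0.24 to 0.46). FADS2, a polyunsaturated fatty acid desaturase, was at 8.03, 8.11 and 8.49 at 4 h and at 8.09, 8.33 and 7.94 at 16 h, a log2 change of 0.09 (95% interval -0.22 to 0.40). ELOVL6, which elongates palmitate, was at 8.20, 8.30 and 8.38 at 4 h and at 8.11, 8.27 and 8.05 at 16 h. It was the most even of the 3 at 4 h, and its log2 change was 0.15 (95% interval -0.04 to 0.33, limma adjusted p = 0.924). The log2 changes of the other 4 were 0.03 for the elongase ELOVL5, 0.02 for the desaturase FADS1, -0.03 for the stearoyl-CoA desaturase SCD1 and -0.07 for its paralogue SCD2. Without 4 h replicate 3 the median log2 change of the 7 genes was -0.11 in place of 0.03.

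**Figure D4:**
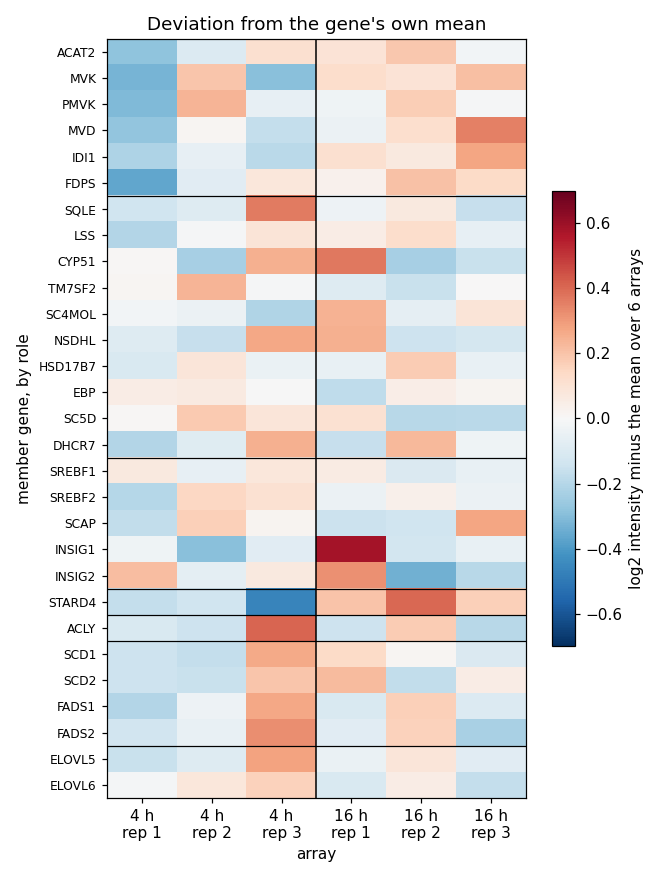
Deviation of each measured member from its own mean over the 6 arrays (log2 units, colour scale from -0.7 to 0.7), with arrays in columns and genes grouped by role between the horizontal lines. The mevalonate genes are blue on 4 h replicate 1, most fatty acid genes are red on 4 h replicate 3, and INSIG1, INSIG2 and CYP51 are red on 16 h replicate 1.

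The arrays also differed in their signal from 18S ribosomal RNA probes, which was high on 4 h replicates 1 and 3 and on 16 h replicate 1. This grouping was entered by array and not by a cut-off, and the 18S values are not given here. Both time points hold arrays of either kind, so values within each kind can be given. Each such value sets 2 arrays against 1, and the single array has no spread of its own. The log2 change of STARD4 was -0.51 within the arrays with high and -0.42 within those with low ribosomal signal, that of IDI1 was -0.31 and -0.23, that of MVD -0.18 and -0.22 and that of FDPS -0.17 and -0.25. MVK differed, at -0.43 within the high and 0.04 within the low arrays, as did PMVK at -0.15 and 0.16. For INSIG1 the values were -0.64 and -0.21. Of the 29 members, 9 (31.0%) were higher on the arrays with high ribosomal signal at both time points, beside 25.6% of all measured genes.

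To place the members among other lipid genes, 4 further lists with 56 genes were examined, of which 47 were measured. None passed the threshold (limma adjusted p of 0.365 or more). At an unadjusted p under 0.05, 4 of the 47 were lower and 6 higher at 4 h, beside 5.36% and 5.99% of all measured genes, and the median log2 change was 0.02. Counts for single lists rest on 3 genes or fewer. In the list for uptake, export and storage of sterol (11 of 15 measured, median -0.04), 3 were lower and 1 was higher. The lower ones were SOAT1, which esterifies cholesterol for storage, NR1H2, the sterol receptor LXRβ, and NPC1, which exports cholesterol from lysosomes. SOAT1 was at 8.30, 8.65 and 8.63 at 4 h and at 8.90, 8.80 and 8.85 at 16 h, with a log2 change of -0.32 (limma adjusted p = 0.718). NR1H2 had a log2 change of -0.29 (limma adjusted p = 0.706) and NPC1 of -0.21 (0.878). In none of these 3 did the time points overlap, nor did they in the higher gene, OSBP, an oxysterol-binding lipid exchanger. OSBP was at 8.96, 8.79 and 8.88 at 4 h and at 8.59, 8.74 and 8.57 at 16 h. Its log2 change was 0.24 (limma adjusted p = 0.742). Over the 47 genes, no overlap was seen for 3 lower and 5 higher genes, beside 5.77% and 6.60% of all measured genes.

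Among genes that process SREBPs or degrade sterol-regulated proteins (7 of 7 measured, median 0.06), ERLIN1, a membrane scaffold of the endoplasmic reticulum, was higher at 4 h at an unadjusted p under 0.05. It was at 8.60, 8.55 and 8.65 at 4 h and at 8.35, 8.35 and 8.43 at 16 h, and the time points did not overlap. Its log2 difference was 0.22 (limma adjusted p = 0.677). In the isoprenoid branches and electron donors (10 of 11 measured, median 0.03) none had an unadjusted p under 0.05.

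In the accessory genes of lipogenesis (19 of 23 measured, median -0.01) 1 gene was lower and 3 were higher. ME1, listed under the older name MOD1, encodes malic enzyme, a source of the NADPH used in lipid synthesis. It was at 7.72, 7.89 and 7.90 at 4 h and at 7.34, 7.56 and 7.35 at 16 h, and the time points did not overlap. The difference amounted to 0.42 log2 units (SE 0.087, limma adjusted p = 0.365, unadjusted p = 0.001). HSD17B12, a ketoacyl-CoA reductase, and HACD2, a hydroxyacyl-CoA dehydratase, act at intermediate steps of the elongation of long fatty acids and had log2 changes of 0.21 and 0.30 (limma adjusted p = 0.833 and 0.919). ACACB, an acetyl-CoA carboxylase, had a log2 change of -0.21 (limma adjusted p = 0.913). The time points did not overlap for HSD17B12 and overlapped for HACD2 and ACACB.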

How the data were processed

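RNA from 6 samples of mGLUTag cells, 3 per time point, was hybridized to mouse WG-6 Illumina BeadChips. The authors deposited linear intensity values, 1 for each probe on each array, from which background had been subtracted but which had not been normalized between arrays; between 31.2% and 34.0% of values were below 0. Scanner software and settings are not given in the sources used here. Normexp background correction (offset 50), quantile normalization and log2 transformation were done in limma 3.58.1 (R 4.3.3). A linear model with the time point (lmFit, then eBayes) was run on all 45281 probes, and p-values were adjusted over all of them (Benjamini-Hochberg, threshold 0.05). The noise limit of an array was the 99th percentile of its values below 0 with the sign turned (9.2 to 14 units); a gene was measured when its mean over the 6 arrays exceeded the highest limit. A gene was represented by its brightest probe. Every member was named, and values by sample are given for members with an unadjusted p under 0.05 or without overlap, and for the 3 largest changes of each part; SQLE was added after its values were seen. Related genes were matched by symbol (67 of 73, markers included) or RefSeq synonym (5). Members, lists and tests were chosen with earlier results of these data known. The number of arrays limits the precision; an exact permutation test of 3 against 3 arrays cannot give a two-sided p under 0.1. The procedure was checked on simulated data. Alternatives were other background corrections and scalings, filters, variance models, array weights, blocks, left-out arrays and averaged probes. Values of 1 gene of the related lists are not reported here.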

Additional observations from a re-analysis of the deposited data

How the results depend on the processing

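The median log2 change of the mevalonate steps was below 0 under each of the 17 alternatives that kept some between-array normalization, from -0.32 to -0.15. The number of members that were lower at an unadjusted p under 0.05 lay between 2 and 5 under the same alternatives, the 5 with linear scaling on detected probes. With no between-array normalization all directions include the brightness of the 4 h arrays: the median log2 change was 0.38 over all measured genes, 0.18 over the mevalonate steps, 0.44 from squalene on, 0.40 over the sterol part, 0.41 over the SREBP regulators and 0.50 over the fatty acid part. Then 3 members were called (TM7SF2, EBP and SCAP, higher), at an unadjusted p under 0.05 there were 18 members higher and 0 lower, and 2308 probes were called higher and 0 lower. Values that turned positive there were 0.31 for ACAT2, 0.16 for MVK, 0.41 for PMVK, 0.14 for MVD, 0.039 for IDI1, 0.21 for FDPS, 0.40 for LSS, 0.32 for SC4MOL, 0.44 for HSD17B7, 0.42 for DHCR7, 0.21 for INSIG1, 0.44 for SCD1 and 0.36 for SCD2; all but PMVK, LSS, HSD17B7, DHCR7 and SCD1 lay below the shared 0.38. Centring on the median of detected probes called 342 probes higher and 23293 lower and 2 members lower, STARD4 (-0.46, limma adjusted p = 0.0139) and IDI1 (-0.40, limma adjusted p = 0.0197), with a median of -0.057 over all measured genes; TM7SF2 was then at -0.0093, SC5D at -0.10, SREBF1 at -0.072, SCAP at -0.031 and SCD1 at 0.0014.

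The 2 probes called higher and 2 called lower became 19 and 10 without background correction, 0 and 2 with cyclic loess, 1 and 0 with trend and robust variance, and 0 and 0 with an offset of 16, with the filter at the noise limit, with the replicate block, and without any 1 array (from 0 to 0 in each direction). Arrays of the same replicate number did not deviate together in every pair (correlations of deviations of 0.25, 0.17 and -0.48); with the replicate block the count of members lower at an unadjusted p under 0.05 was 4 and no member was called. With the ribosomal RNA separation as a block 1 member was higher at an unadjusted p under 0.05, and PMVK (0.0016), CYP51 (-0.14) and NSDHL (-0.092) changed sign. SCAP did so with array weights (-0.019) and cyclic loess (-0.00050), FADS1 (-0.079) and ELOVL5 (-0.021) with linear scaling, and NSDHL (-0.039) and SREBF2 (-0.17) with averaged probes.

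When each array was left out in turn, 0 to 2 members were higher at an unadjusted p under 0.05. The median ranged from -0.12 to 0.0087 over the sterol part and from -0.090 to 0.073 from squalene on, from -0.032 to 0.071 over the SREBP regulators and from -0.11 to 0.13 over the fatty acid part. Centring put the regulators at -0.031 and linear scaling the fatty acid part at -0.013. Ranges that kept their sign but spanned over 1.5 times from end to end were -0.45 to -0.19 for MVK, -0.38 to -0.18 for MVD, -0.35 to -0.12 for FDPS, -0.28 to -0.083 for ACAT2, -0.26 to -0.10 for SC4MOL, 0.084 to 0.21 for TM7SF2, 0.0045 to 0.12 for EBP, 0.14 to 0.29 for SC5D, 0.027 to 0.11 for SREBF1, -0.40 to -0.045 for INSIG1, 0.011 to 0.34 for INSIG2 and 0.10 to 0.21 for ELOVL6. The unadjusted p of MVD was also above 0.05 without background correction (0.0907), with the filter at the noise limit (0.0513) and with trend and robust variance (0.0511). Ranges that crossed 0 were -0.22 to 0.046 for PMVK, -0.074 to 0.18 for SQLE, -0.15 to 0.0019 for LSS, -0.11 to 0.20 for CYP51, -0.12 to 0.14 for NSDHL, -0.10 to 0.029 for HSD17B7, -0.16 to 0.080 for DHCR7, -0.032 to 0.14 for SREBF2, -0.072 to 0.15 for SCAP, -0.073 to 0.22 for ACLY, -0.17 to 0.042 for SCD1, -0.18 to 0.026 for SCD2, -0.11 to 0.13 for FADS1, -0.048 to 0.20 for FADS2 and -0.11 to 0.11 for ELOVL5. The cause of these differences was not tested.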
